A study of Mus musculus with 281 samples.

Results

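Prostanoids are local lipid signals made from arachidonic acid. Phospholipases and related lipases free arachidonic acid from membranes, the prostaglandin H synthases (cyclooxygenases, Ptgs1 and Ptgs2) turn it into prostaglandin H2, and terminal synthases then make one prostanoid each. Ptgis makes prostacyclin, Ptgds makes prostaglandin D2, Ptges, Ptges2 and Ptges3 make prostaglandin E2, Tbxas1 makes thromboxane A2, and Hpgd starts the breakdown of prostaglandins by oxidising them. Ptgds protein also carries lipophilic molecules outside cells, and Ptges3 is better known as p23, a co-chaperone of Hsp90. These 9 genes were followed here across cell types and Slc26a4 genotypes, and all 9 were found among the 47752 genes measured in single cells. They were selected by name together with 1 measured value, the fall of Ptgis in mutant intermediate cells, so the contrast of Slc26a4-/- with Slc26a4+/+ intermediate cells is given below as a description for every gene.

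The cells came from the stria vascularis, the tissue of the lateral cochlear wall that secretes the potassium-rich endolymph, and each was picked by eye with a glass micropipette and amplified by Smart-Seq2, a full-length method without molecular identifiers. Slc26a4 encodes pendrin, an anion exchanger that moves bicarbonate into the endolymph, and its loss causes deafness. Slc26a4+/+ cells (strain 129S6, aged 22 to 42 days) made up batches of 52, 26, 75 and 19 cells, and there were 40 Slc26a4+/- cells (26 to 33 days) and 69 Slc26a4-/- cells (24 to 44 days), all from male mice, on a 129S6 background by the study's methods. Several mice of each genotype were used, but no label ties a cell to a mouse, so cells were not taken as replicates and no test between genotypes was run. Cells were taken in 37 collection sessions (a batch, a collection date, an age and a genotype), and the range over sessions is given as a description. Of 4 sequencing batches, batch 2 (26 Slc26a4+/+ and 46 Slc26a4-/- cells) and batch 4 (19, 40 and 22 cells of the 3 genotypes) held more than 1 mutant cell, so both were also read alone. Which part of Slc26a4 was deleted is not given in the sources used here, and its RNA did not mark the mutants: in spindle cells the mean was 912 CPM (a gene's counts after every cell was scaled to the same total) in Slc26a4+/+ and 156.6 CPM in Slc26a4-/-, and in root cells it was 989 and 1222 CPM. Mutant cells are therefore the cells labelled Slc26a4-/- throughout.

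Clusters were named from marker genes. There were 110 intermediate-cell-like cells (IMC-like, pigment cells of the stria that express Dct), 35 spindle-cell-like cells (SC-like, Anxa1), 36 root-cell-like cells (RC-like, Epyc) and 21 marginal-cell-like cells (MC-like, the potassium-secreting epithelium, Kcne1). Another pair of clusters kept no name. The larger, of 62 cells, was led by blood genes (Hbb-bs, Slc4a1, Mpo, Elane), though 31 of its cells had their best score on intermediate markers and 20 on marginal ones. The smaller, of 17 cells, had Crhbp and Slc26a7 as its leading genes. The median cell held 1312950 counts (1848 to 7932729). Picking by eye means that the number of cells of a type carries no information on its abundance.

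In the mouse genome (GRCm38, GENCODE M21) 5 of the genes lie on chromosome 2. Ptgis lies at chr2:167191805-167240604 on the minus strand, Ptgds at chr2:25466709-25470046 (minus), Ptges at chr2:30889471-30929863 (minus), Ptges2 at chr2:32395896-32405772 (plus) and Ptgs1 at chr2:36230426-36252272 (plus). Ptgs2 is at chr1:150100031-150108227 (plus), Tbxas1 at chr6:38875404-39084585 (plus), Hpgd at chr8:56294585-56321043 (plus) and Ptges3 at chr10:128058954-128077272 (plus). The libraries do not keep strand, and Ptgis shares exon bases with 1110018N20Rik on the other strand, so reads there cannot be told apart. Tbxas1 shares such bases with the antisense gene Gm42962, and Ptgs1 with Gm43621.

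RefSeq promoter windows were found for 8 of the 9 genes (all but Ptgis). Those of Ptgds, Ptges and Hpgd are shown because each of these genes was highest in a different cell type. Each runs 5′ to 3′ up to 250 bases before the RefSeq start (GRCm38.p6), and capitals mark every match to the E-box CANNTG (the same on both strands) or to the GC box GGGCGG on either strand.
Ptgds, chr2:25469843-25469999, minus strand, ended where an annotated exon begins: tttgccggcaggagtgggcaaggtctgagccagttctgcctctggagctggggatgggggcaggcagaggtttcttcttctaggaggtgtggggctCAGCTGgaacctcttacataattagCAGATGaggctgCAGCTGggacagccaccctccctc
Ptges, chr2:30903298-30903547, minus strand: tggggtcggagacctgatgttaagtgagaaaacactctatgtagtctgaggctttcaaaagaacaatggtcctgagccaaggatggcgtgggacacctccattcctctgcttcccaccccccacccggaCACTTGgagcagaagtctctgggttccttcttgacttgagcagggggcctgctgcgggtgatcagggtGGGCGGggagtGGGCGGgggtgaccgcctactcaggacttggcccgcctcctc
Hpgd, chr8:56294302-56294551, plus strand: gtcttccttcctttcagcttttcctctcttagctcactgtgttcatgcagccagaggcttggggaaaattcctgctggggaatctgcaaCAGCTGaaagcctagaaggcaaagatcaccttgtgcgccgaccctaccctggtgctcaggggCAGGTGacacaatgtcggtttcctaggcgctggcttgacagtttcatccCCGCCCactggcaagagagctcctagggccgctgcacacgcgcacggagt
The Ptgds window held 3 E-boxes and no GC box, that of Ptges 1 E-box and 2 GC boxes, and that of Hpgd 2 E-boxes and 1 GC box. Over all 32851 windows of 250 bases, 66.2% held an E-box and 32.7% a GC box, so these letters are common. None of the 3 held TATAAA on either strand, which 12.4% of windows held. Such matches are a description of letters and not sites.

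In wild-type stria the 9 genes were divided among the cell types. Ptgds was by far the most abundant in every type, and Ptges2 and Ptges3 were found in all 4. Ptgis was found in part of the intermediate cells, Ptges in part of the spindle and marginal cells, and Hpgd in 2 of 17 root cells. The cyclooxygenases that feed these synthases were nearly absent: Ptgs2 had no count at all and Ptgs1 reached 10 counts in 4 cells of any type.

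**Figure D1:**
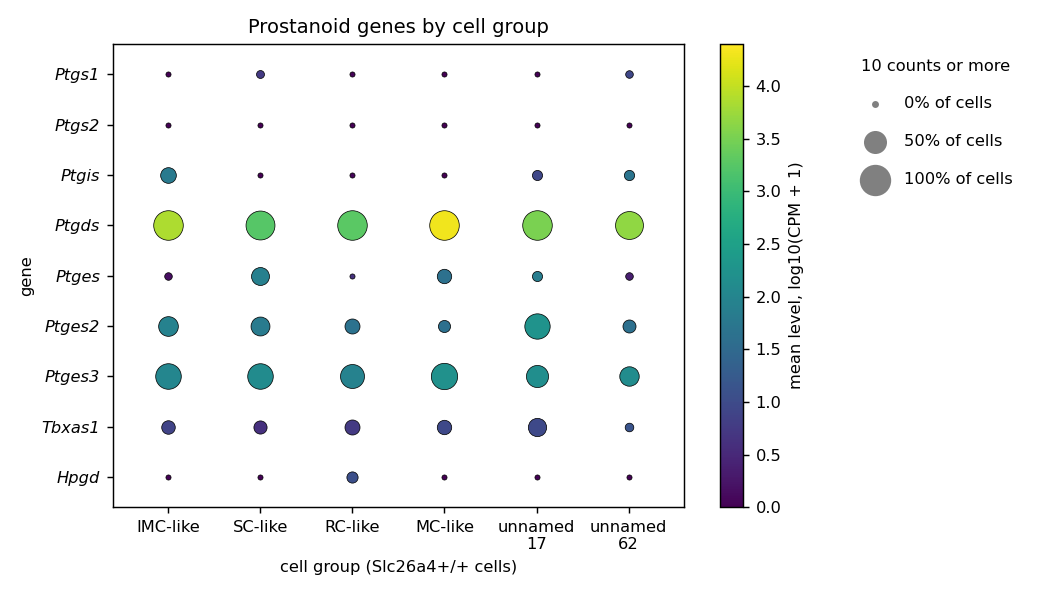
Mean level of each prostanoid gene (colour, log10(CPM + 1)) and the share of cells with 10 or more counts (dot size) over the Slc26a4+/+ cells of each cluster (columns). The Ptgds row is filled in every column, while Ptgis, Ptges and Hpgd each stand out in few columns and the Ptgs1 and Ptgs2 rows are nearly empty.

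Ptgs2, the inducible cyclooxygenase, had 0 counts among 445750007, at the gene and at both of its transcripts. A count of 0 in every cell analysed allows up to 1.07% of cells to hold a count (3 cells of the total), which is no limit on cells that express the gene below detection, and the floor of 3 counts over all cells is 0.00673 CPM. Ptgs1, the constitutive cyclooxygenase, reached 10 counts in 0 of 110 IMC-like, 0 of 36 RC-like and 0 of 21 MC-like cells. Its 4 cells were 1 SC-like Slc26a4+/+ cell at 105.7 CPM and 3 cells of the blood-led cluster, of which the highest held 313.9 CPM. That highest cell, labelled Slc26a4+/-, also held 98963 CPM of the neutrophil-precursor gene Mpo. Over all cells, 93.6% of Ptgs1 counts fell on the protein-coding transcript, all of them in the blood-led cluster and SC-like cells. Sequencing without molecular identifiers means that counting intervals and floors cover counting error only. Intervals of shares treat cells as independent and leave out the spread between mice and sessions.

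Ptgis was a gene of a minority of intermediate cells. Among 54 wild-type IMC-like cells the lowest and the median were 0 CPM, the highest was 658 CPM and the mean was 62 CPM. It had 10 or more counts in 14 of them (exact binomial 95% interval of the share 14.96% to 39.7%), and these 14 cells held 99.6% of the summed Ptgis CPM, with a lowest of 8.86, a median of 190.7 and a highest of 658 CPM. Cells with Ptgis therefore held much of it, and most wild-type intermediate cells held none. The 14 cells came from 10 sessions, all 4 batches and ages of 23 to 40 days, and their median depth was 1585170 counts against 1296610 in the other 40. Their median Ptgds was 5485 CPM, against 6267 CPM in the other 40. With every cell thinned to 100000 counts, 27.8% of wild-type IMC-like cells held a Ptgis count, against 35.2% at full depth.

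In the other named types Ptgis was near 0. Its wild-type mean was 0.036 CPM in spindle, 0.171 CPM in root and 0 CPM in marginal cells, a log2 ratio of 5.75 between IMC-like and the next type (pseudocount 1 CPM). The unnamed clusters held some. The highest cell of all, at 1774 CPM, was a wild-type cell in the blood-led cluster. There, 4 of the 25 wild-type cells that scored highest for intermediate markers had 10 counts of Ptgis. Of its counts in IMC-like cells, 92.4% fell on the protein-coding transcript ENSMUST00000018113.7 and 7.60% on another one.

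In cells labelled Slc26a4-/- Ptgis was all but missing. The 34 Slc26a4-/- IMC-like cells held 2 counts in all, both of them single counts, with a lowest and median of 0 CPM and a highest of 0.472 CPM. The 22 Slc26a4+/- cells had a median of 0 and a highest of 215.96 CPM, with 10 counts in 3 cells (2.91% to 34.9%). No Slc26a4-/- cell reached 10 counts (exact interval of the share 0% to 10.3%). As CPM of the summed counts, Ptgis was 71.6 for wild type, 18.6 for Slc26a4+/- and 0.0303 (counting interval 0.00367 to 0.109) in Slc26a4-/-. The ratio of wild type to Slc26a4-/- was 2366. A range of 655 to 19536 came from the counting interval of the Slc26a4-/- sum alone, with wild type held fixed. That range leaves out the spread over cells and sessions, so it is no bound on the difference between genotypes.

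The mean CPM over cells was 0.020 in Slc26a4-/- and 62 in Slc26a4+/+, a log2 ratio of -5.95. It was 19.4 in Slc26a4+/-, a log2 ratio of -1.62 to wild type. The median depth was 1370115 counts for wild-type, 2447391 for heterozygous and 1402364.5 for Slc26a4-/- IMC-like cells. In batch 2 it was 1440415 counts for wild type and 976619.5 for Slc26a4-/-, and in batch 4 it was 1831846 and 3940873.5. The part of depth was not tested. Within batch 2 the means were 107.9 CPM over 9 wild-type cells and 0.02 over 22 Slc26a4-/- cells. Within batch 4 they were 91.2 CPM over 7 wild-type cells, 19.4 CPM over 22 heterozygous cells and 0.02 CPM over 12 Slc26a4-/- cells. Wild-type sessions were uneven: 11 of 18 had a mean of 1 CPM or more, against 3 of 4 Slc26a4+/- and 0 of 9 Slc26a4-/- sessions. The lowest wild-type sessions were at 0 in both batches, so sessions of the 2 genotypes overlapped at 0. On the 4 dates of batch 2 that gave IMC-like cells of both genotypes, the wild-type means were 0, 0, 17.3 and 132.03 CPM and the Slc26a4-/- means 0.157, 0, 0 and 0 CPM. Ptgis was thus lower in Slc26a4-/- on 2 of these 4 dates, and at or near 0 in both genotypes on the others. The wild-type value of 17.3 CPM was 1 cell.

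**Figure D2:**
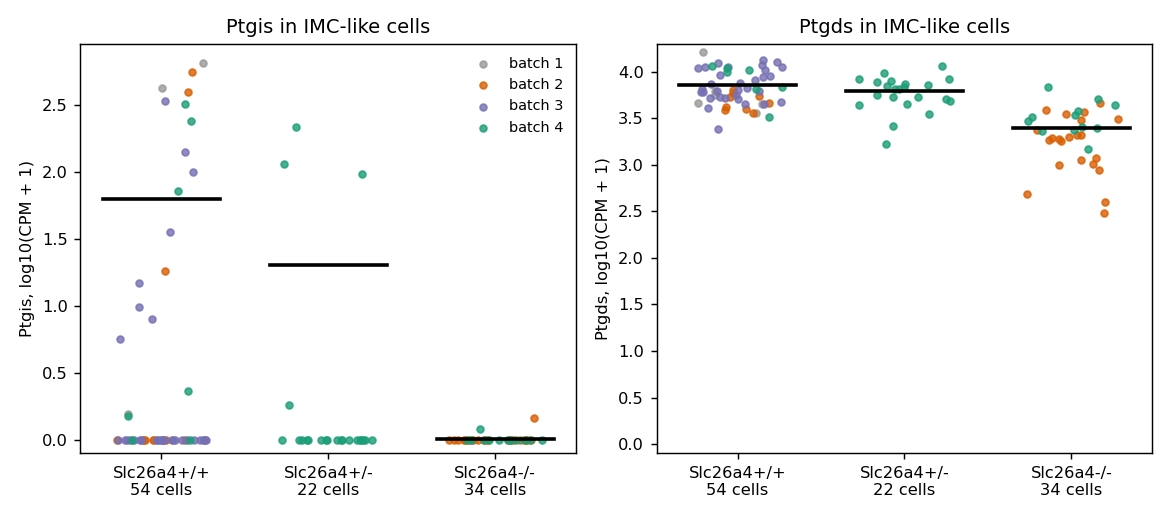
Ptgis (left) and Ptgds (right) in single IMC-like cells by Slc26a4 genotype on a log10(CPM + 1) axis, coloured by batch, with black lines at the mean over cells. Ptgis is at or near 0 in all 34 Slc26a4-/- cells and spread up to 658 CPM in Slc26a4+/+, and Ptgds is present in every cell with the Slc26a4-/- cells lower.

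Ptgds was the other member that was lower in mutant intermediate cells. All 110 IMC-like cells held it with 10 counts or more. In 54 Slc26a4+/+ cells the lowest, median and highest were 2427, 6223 and 16274 CPM, in 22 Slc26a4+/- cells 1684, 6560 and 11526 CPM, and in 34 Slc26a4-/- cells 303.4, 2343 and 6784 CPM. The cells of the genotypes overlapped, with the Slc26a4-/- median below the lowest wild-type cell. The means were 7233, 6278 and 2503 CPM, so the log2 ratio to wild type was -0.20 in Slc26a4+/- and -1.53 in Slc26a4-/-.

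Sessions of the 2 homozygous genotypes separated within each batch. In batch 2 the 5 wild-type sessions had means of 3979 to 5105 CPM and the 6 Slc26a4-/- sessions 1419 to 3396 CPM. In batch 4 the 3 wild-type sessions had means of 8389 to 8582 CPM and the 3 Slc26a4-/- sessions 2573 to 5092 CPM. The log2 ratios within these batches were -1.26 and -1.32. On each of the 4 dates of batch 2 that gave both genotypes, Ptgds was lower in Slc26a4-/-, at 1748, 3003, 3396 and 1544 CPM against 5105, 3979, 4616 and 5091 CPM in wild type. The values of 3003, 3979 and 4616 CPM were 1 cell each, and the genotypes differed in age on every date. The share of all genes lower on all 4 dates was not counted. The 4 Slc26a4+/- sessions of batch 4 lay between 1684 and 7826 CPM, all below the 3 wild-type sessions, with a log2 ratio of -0.44. The session at 1684 CPM was 1 cell. How many of all genes had Slc26a4+/- sessions apart in this way was not counted. Pooled over batches, sessions overlapped, since wild type ranged from 3979 to 11077 CPM and Slc26a4-/- from 1419 to 5092 CPM. Every Slc26a4-/- session lay below every wild-type session in both batches for 3 of 8921 genes (0.0336%), namely Ptgds, Ucp2 (a mitochondrial uncoupling protein) and BC002163. That count was chosen after the Ptgds sessions had been seen, and its contrast is the one used to select the genes.

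Both genes were members of a wider set of differences in these cells. A gene was counted as different at 2-fold or more where the mean of both groups was at least 10 CPM. Between Slc26a4-/- and Slc26a4+/+ IMC-like cells, 15.4% of 8921 genes were lower and 9.94% higher by this rule, with a median log2 ratio of -0.12. Of the 9 prostanoid genes, 4 reached 10 CPM (Ptgis, Ptgds, Ptges2 and Ptges3). Of these, 2 were lower (Ptgis, Ptgds) and 0 were higher, with a median of -0.61 that includes Ptgis. The fall of Ptgis was used to select the genes, and Ptgis reached 10 CPM through its wild-type mean of 62 CPM alone. Its place among the lower genes was thus fixed in advance, and the count and median are no support for a change of the set. Between Slc26a4+/- and Slc26a4+/+ cells the shares were 16.9% and 9.43%, and 1 of the 4, Ptgis, was lower. Pigment genes took up more of the mutant libraries: the 12 intermediate markers summed to a mean of 58155 CPM in wild type, 97239 CPM in Slc26a4+/- and 81010 CPM in Slc26a4-/- cells. The 12 marginal markers summed to 580, 166.3 and 211.6 CPM in the same order, with Kcne1 among them at 69.4, 7.70 and 4.79 CPM. The 6 pericyte markers summed to a mean of 97.98, 25.1 and 429.8 CPM and a median of 14.8, 1.10 and 113.4 CPM. The part of these 3 lists in the lower Ptgds was not tested. With counts summed over cells and TMM scaling, the log2 ratio of Ptgds was -0.96, just short of 2-fold.

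**Figure D3:**
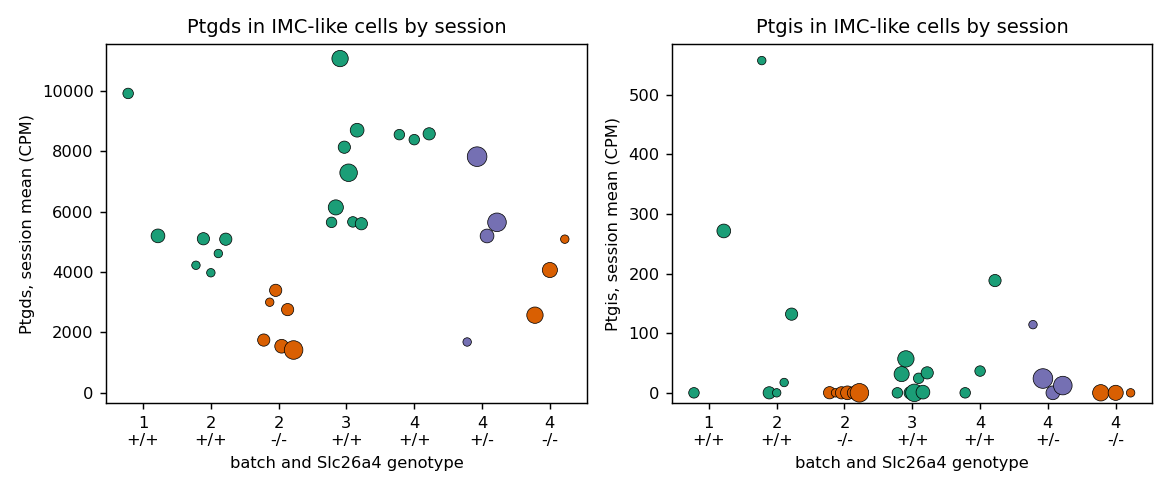
Mean Ptgds (left) and Ptgis (right) of IMC-like cells per collection session in CPM, by batch and genotype, with larger points for sessions of more cells. In batches 2 and 4 all Slc26a4-/- session means of Ptgds lie below the Slc26a4+/+ ones, while Ptgis session means reach 557 CPM in Slc26a4+/+ and stay below 1 CPM in Slc26a4-/-.

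Ptgds was highest in marginal cells. Over 14 wild-type MC-like cells the lowest, median and highest were 1156, 21162 and 32158 CPM, with a mean of 20162 CPM, a log2 ratio of 1.48 above IMC-like cells. Session means ran from 8351 to 32158 CPM in MC-like and from 3979 to 11077 CPM in IMC-like cells, so the lowest marginal sessions lay within the intermediate range. The order went on with root (1895 CPM) and spindle cells (1726 CPM), whose session ranges of 19.1 to 7453 and 180 to 7924 CPM were not apart from each other. Every cell analysed held at least 1 count of Ptgds. Per length, it stood at a mean of 45877 TPM in MC-like and 17478 TPM in IMC-like wild-type cells, where no other member passed 120.6 TPM.

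Marginal cell markers were read beside Ptgds. The 12 marginal cell markers summed to 58592 CPM in wild-type MC-like cells and to 580 CPM in wild-type IMC-like cells. Ptgds stood at 0.344 of the summed marginal markers in MC-like cells and at 12.5 times them in IMC-like cells. In Slc26a4+/- IMC-like cells this quotient was 37.7. In Slc26a4-/- IMC-like cells it was 11.8, close to wild type, as Ptgds and the marginal list were both lower there. In wild-type spindle cells that quotient was 0.333, close to the 0.344 of marginal cells, and in root cells it was 0.737. In spindle cells the marginal list was higher in Slc26a4-/- (8015 CPM) than in wild type (5179 CPM), so that the quotient was 0.0826 in Slc26a4-/-, although Kcne1 alone was at 73.3 CPM in wild type and 0.737 CPM in Slc26a4-/-. In root cells the list was lower, at 545 CPM in Slc26a4-/- against 2572 CPM, and the quotient was 0.73 in Slc26a4-/-. The part of marginal cell RNA in the Ptgds of intermediate, spindle and root cells was not tested.

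In the other cell types the mean of Ptgds was also lower in cells labelled Slc26a4-/-, with wide ranges. Over 13 Slc26a4-/- RC-like cells the lowest, median and highest were 15.3, 176.1 and 1712 CPM, against 19.1, 497 and 7453 CPM in 17 wild-type cells, a log2 ratio of means of -2.25. Within batch 4 it was -2.82, with wild-type sessions from 134.7 to 5479 CPM around Slc26a4-/- sessions of 272.9 to 277.9 CPM. Over 10 Slc26a4-/- SC-like cells the values were 3.88, 481 and 2419 CPM, against 180, 839 and 7924 CPM in 23 wild-type cells (log2 ratio -1.38, and -0.98 without the Slc26a4-/- session of 5 such cells or -2.29 without that of 3). Within batch 2, the only one with both genotypes of SC-like cells, the means of 662 and 667 CPM were alike, with 2 wild-type cells. In 5 Slc26a4-/- MC-like cells it was 5282, 10892 and 40462 CPM (log2 ratio of means -0.40, and -1.16 without the 1 cell at 40462 CPM). In batch 2 the ratio was -1.09, with 2 Slc26a4-/- sessions at 5282 and 5671 CPM below 2 wild-type ones at 10164 and 16007 CPM. Each of these Slc26a4-/- sessions was 1 cell, and the share of all genes apart in this way was not counted. With summed counts and TMM scaling the ratio in MC-like cells was 0.03. Cells of both genotypes overlapped in all 3 types.

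These contrasts had large backgrounds. At 2-fold, 29.4% of genes were lower and 21.2% higher in Slc26a4-/- spindle cells, where 2 of the 4 prostanoid genes that reached 10 CPM were lower (Ptgds, Ptges) and 1 higher (Ptges3). For root cells the shares were 26.3% and 20.5%, with 2 of 4 lower (Ptgds, Ptges2) and 0 higher. For marginal cells they were 24.1% and 24.7%, with 1 of 4 lower (Ptges) and 1 higher (Ptges2). For SC-like and RC-like cells together, the pendrin-expressing cells that the study also pooled, 19.6% and 13.7% of genes were lower and higher, and 2 of 4 prostanoid genes were lower. With 4 genes a contrast, these counts do not set the prostanoid genes apart from the rest.

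Prostaglandin E2 has 3 candidate synthases, and they behaved differently. Ptges, the inducible microsomal enzyme, was a gene of a minority of spindle and marginal cells. In 23 wild-type SC-like cells its median was 0, its highest 638 and its mean 79.7 CPM, with 10 counts in 8 cells (16.4% to 57.3%). In 14 wild-type MC-like cells the median was 0, the highest 542 and the mean 41.9 CPM, with 10 counts in 3 cells (4.66% to 50.8%). The 1 cell at 542 CPM made up most of that mean, and wild-type MC-like sessions without it averaged 7.81 CPM or less. The 2 types were within each other's session ranges (0 to 638 and 0 to 180.7 CPM). It was at 0.438 CPM in IMC-like and 3.23 CPM in RC-like wild-type cells, and 1 cell of the unnamed cluster of 17 held 768 CPM, the highest of all.

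In 10 Slc26a4-/- SC-like cells Ptges had 10 counts in 1 cell, at 341 CPM, and a mean of 36.2 CPM (log2 ratio -1.12). That difference turned round in batch 2, where both wild-type cells were at 0. It rested on single sessions, since it was -4.86 without the Slc26a4-/- session of the cell at 341 CPM and -0.19 without the Slc26a4-/- session of 5 cells. In 5 Slc26a4-/- MC-like cells the highest was 1.43 CPM, against a wild-type mean of 41.9 CPM (log2 ratio -4.95), and both genotypes had cells at 0. Without the 1 wild-type session of 3 cells that averaged 180.7 CPM, nearly all of it from 1 cell, the log2 ratio was -1.87.

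Ptges2, a membrane-associated enzyme, was found in every type. Its wild-type mean was 85.5 CPM in intermediate, 64.2 in spindle, 44.5 in root and 40.1 in marginal cells, and 180 CPM in the 11 wild-type cells of the unnamed cluster of 17. Medians were 1.87 CPM or less in the 4 named types, so the means came from part of the cells. In Slc26a4-/- IMC-like cells 22 of 34 had 10 counts (46.5% to 80.3%) and the mean was 112.4 CPM, against 23 of 54 (29.2% to 56.8%) in wild type. The log2 ratio of means in these cells was 0.39 over all batches, 1.02 in batch 2 and 0.07 in batch 4. In 5 Slc26a4-/- MC-like cells the mean was 148.1 CPM (log2 ratio 1.86), and in 13 Slc26a4-/- RC-like cells 19.8 CPM (log2 ratio -1.13), which turned round to 4.16 in batch 4. It was -0.20 without the wild-type session of 1 cell at 390.6 CPM, and -4.28 without the Slc26a4-/- session of 5 cells. Retained-intron and decay transcripts held 26.96% and 1.69% of its counts in IMC-like cells.

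Ptges3 was the most even of the 9. Wild-type means were 103.9 CPM in intermediate, 126.8 in spindle, 88.1 in root and 162.3 in marginal cells, and 40 of 54 wild-type IMC-like cells had 10 counts. In Slc26a4-/- cells the means were 128.9, 258.3, 102.4 and 152.8 CPM in that order, and of these 4 the one in spindle cells alone was 2-fold higher (log2 ratio 1.02), where both wild-type cells of batch 2 were at 0. That ratio was 0.19 without the Slc26a4-/- session of 5 cells. In IMC-like cells the log2 ratio was 0.31 over all batches, 0.01 in batch 2 and -1.20 in batch 4. Its chaperone partners were abundant beside it, with Hsp90ab1 at 635 to 1209 CPM across the 4 wild-type types.

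Tbxas1, the thromboxane synthase of platelets and macrophages, had 10 counts in 58 cells, and its transcripts differed between cell types. The protein-coding transcript (ENSMUST00000003017.12) had 0 counts in intermediate, spindle and marginal cells and 1 count in root cells, while 85.4% of the gene's counts in the blood-led cluster fell on it. Any protein-coding transcript took 19.1% of Tbxas1 counts in intermediate, 0.763% in spindle, 0.291% in root and 0% in marginal cells. The rest lay on retained-intron and processed transcripts, of which ENSMUST00000161781.7 alone took 37.4% (root) to 84.9% (marginal). The IMC-like protein-coding counts were nearly all of ENSMUST00000162521.7. Gene-level CPM of Tbxas1, whose wild-type mean was 6.64 in IMC-like and 12.9 in the blood-led cluster, hides this split.

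Single cells were ranked by Tbxas1 CPM only where the count was also high, so shallow cells are left out. Of the 4 highest among them, 3 carried blood genes. The highest, at 233.5 CPM, was the same Mpo-rich Slc26a4+/- cell that led for Ptgs1. The next, at 227.7 CPM, held 92256 CPM of the haemoglobin gene Hbb-bs, and a further one, at 109.1 CPM, held 33784 CPM of the macrophage gene Lyz2. The other one was IMC-like, at 144.9 CPM, and had 28809 CPM of the pigment gene Dct and 0 CPM of Mpo and Lyz2.

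**Figure D4:**
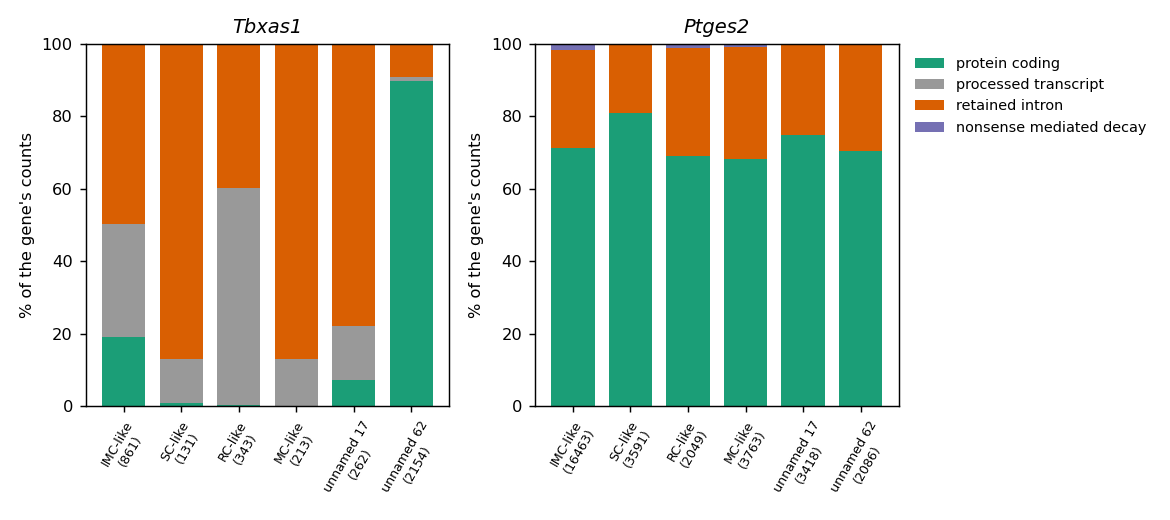
Share of each gene's estimated counts by annotated transcript class in each cluster, for Tbxas1 (left) and Ptges2 (right), with the number of counts in brackets. Protein-coding transcripts hold 89.7% of Tbxas1 counts in the unnamed cluster of 62 and 19.1% or less in the 4 named clusters, whereas for Ptges2 they hold 68.1% to 80.9% in the named clusters.

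Hpgd, the enzyme that inactivates prostaglandins, was found mainly in root cells. Of all cells analysed, 6 had 10 or more counts, and all 6 were RC-like. They were 2 of 17 Slc26a4+/+ cells at 157.4 and 20.0 CPM, 1 of 6 Slc26a4+/- cells at 339 CPM, and 3 of 13 Slc26a4-/- cells at 135.97, 95.9 and 29.3 CPM. Its mean was 10.4, 56.6 and 20.1 CPM in these genotypes, and no wild-type SC-like, IMC-like or MC-like cell held a count. At 1 count, 4 IMC-like cells held it, of which 2 were Slc26a4+/- and 2 Slc26a4-/-. In Slc26a4-/-, 1 IMC-like cell reached 10 CPM. The exact intervals of the 3 root cell shares were 1.46% to 36.4%, 0.421% to 64.1% and 5.04% to 53.8%. They treat cells as independent, so they are no comparison of genotypes. The wild-type cell at 157.4 CPM also held 526.4 CPM of Hbb-bs and 160 CPM of Lyz2. Over all marker lists it scored highest for macrophages. The wild-type cell at 20.0 CPM scored highest for basal cells and held 59.6 CPM of Mpo beside 10278 CPM of Epyc. Both cells came from batch 4. The 3 cells that led for Hpgd all expressed Epyc, from 5308 to 24556 CPM.

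Synthases were rarely measured with a cyclooxygenase in the same cell. Of 17 IMC-like cells with 10 counts of Ptgis, 0 had 10 counts of Ptgs1 or Ptgs2, and all 17 had Ptgds. At a threshold of 1 count, 25 IMC-like cells held Ptgis, and 3 of these held Ptgs1. In IMC-like cells, however, 0 Ptgs1 counts fell on the protein-coding transcript, and all lay on processed transcripts. The single SC-like cell with Ptgs1 also held Ptges, Ptges2, Ptges3, Ptgds and Tbxas1 at 10 counts.

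Genes upstream and downstream of the synthases had their own cell types. Of 63 other genes of prostanoid and arachidonate handling, in 7 lists, 32 reached 10 CPM in at least 1 wild-type type. Mgll, which frees arachidonate from endocannabinoids, was highest in IMC-like cells at 814 CPM (sessions 100.6 to 2913 CPM), against 132.7 to 222.8 CPM elsewhere. Among phospholipases A2, Pla2g5 was at 187.8 CPM in marginal, 101.3 in spindle and 83.6 in root cells, against 7.10 CPM in intermediate cells. Acsl3 and Mboat7, which put fatty acids back into lipids, were highest in RC-like cells at 527 and 285.6 CPM. Lta4h, the leukotriene A4 hydrolase, was at 750 CPM in IMC-like cells and 161.03 CPM or less in the others. The lipoxygenase Alox12 reached 42.8 CPM in RC-like cells.

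Transporters and receptors were highest in other cell types than Ptgis, and some were also found in intermediate cells. Abcc4, which exports prostaglandins, was at 527 CPM in MC-like cells, with 10 counts in 12 of 14, and at 43.5 CPM or less in the other types, with 10 counts in 8 of 54 IMC-like cells. Slco2a1, the prostaglandin uptake carrier, was at 149.3 CPM in SC-like cells and 4.59 CPM or less in the others, with sessions from 0 to 1536 CPM. Of 9 prostanoid receptors 2 passed 10 CPM. Ptger3, a receptor of prostaglandin E2, was at 211.5 CPM in MC-like cells (10 counts in 8 of 14), and Ptger1 at 34.2 CPM in RC-like cells (10 counts in 3 of 17, with 1 session at 509 CPM). In IMC-like cells Ptger1 was at 7.09 CPM, with 10 counts in 10 of 54, so it was detected about as often there. The prostacyclin receptor Ptgir and the prostaglandin D2 receptor Ptgdr2 were at 0 CPM in all 4 wild-type types, and the other D2 receptor, Ptgdr, was at 1.72 CPM or less (these 3 are named for their ligands, below the level of the other named genes). Ptgr2 and Zadh2, which act on the ketoprostaglandins that Hpgd makes, were at 105.5 and 118.6 CPM in IMC-like cells, where Hpgd had no wild-type count.

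**Figure D5:**
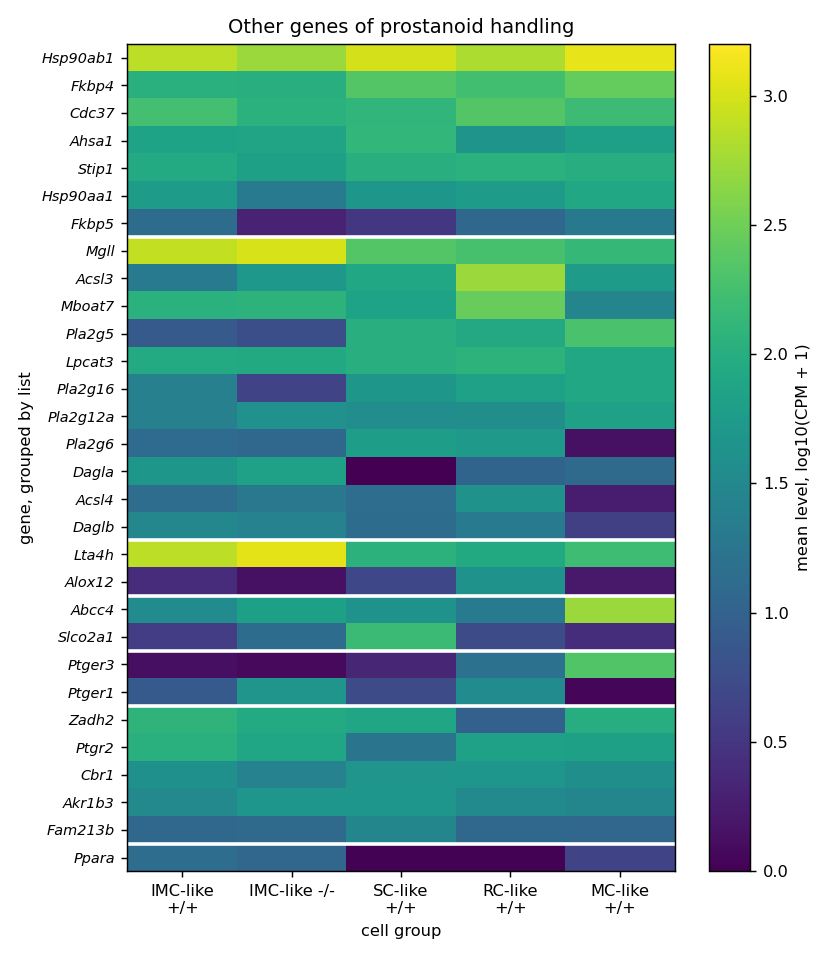
Mean level (log10(CPM + 1)) of the 30 most abundant other genes of the pathway, grouped by list (white lines), in Slc26a4+/+ cells of 4 types and in Slc26a4-/- IMC-like cells. Abcc4 and Ptger3 are brightest in MC-like, Slco2a1 in SC-like, Acsl3 in RC-like and Mgll and Lta4h in IMC-like columns.

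Between genotypes of IMC-like cells these other genes were read against the same background. Of 63, 26 reached the level for the Slc26a4-/- contrast, and 2 were lower and 3 higher by 2-fold, beside backgrounds of 15.4% and 9.94%. Lower were Pla2g16, a phospholipase of lipid droplets (23.6 to 3.60 CPM), and the chaperone Hsp90aa1 (56.6 to 20.2 CPM). Higher were Ptger1 (7.09 to 45.4 CPM), the secreted phospholipase Pla2g2e (7.43 to 38.5 CPM) and Acsl3 (19.6 to 49.7 CPM). In Slc26a4+/- cells 25 reached the level, and 1 was lower and 4 higher, beside backgrounds of 16.9% and 9.43%. Mgll was lower (814 to 289.2 CPM), and Fam213b, Pla2g2e, Pla2g5 and Ppara were higher. Pla2g2e, named after its values were seen, had 10 counts in 6 of 54 wild-type, 14 of 22 Slc26a4+/- and 19 of 34 Slc26a4-/- IMC-like cells. These other genes were read over all batches only, and all 22 Slc26a4+/- cells came from batch 4. Their median depth was 2447391 counts, against 1370115 in wild type, which makes 10 counts easier to reach. The part of batch and depth was not tested. Among the 9 receptors, Ptger1 alone reached the level in the Slc26a4-/- contrast, with 10 counts in 10 of 54 wild-type and 14 of 34 Slc26a4-/- cells.

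The genes whose pattern was most like that of each member were taken by Pearson correlation of log2(mean CPM + 1) over 10 groups of cell type and genotype, among 12474 genes. These groups share batches and depth, so the coefficients are a description. Ptgis was most like Tgfbi (0.99), Cyp46a1 (0.98) and Bhlha15 (0.98). Its mean was 62 and 19.4 CPM in Slc26a4+/+ and Slc26a4+/- IMC-like cells and below 1 CPM in the other groups. Genes most like it were thus picked for the same fall, and their values add no support to it. Tgfbi, an extracellular matrix protein, had means of 25.9, 5.98 and 0.028 CPM in the IMC-like cells of Slc26a4+/+, Slc26a4+/- and Slc26a4-/-, and Cyp46a1, the cholesterol 24-hydroxylase, had 44.7, 6.48 and 0 CPM. Ptgds was most like Slc25a3 (0.97), Slc12a2 (0.95) and Cd1d1 (0.94). Slc12a2, the sodium-potassium-chloride cotransporter of marginal cells, had 1812 CPM in wild-type MC-like cells and 418, 157.4 and 141.7 CPM in the IMC-like cells of the 3 genotypes. Ptges was most like Sbspon (0.96), Kcnk18 (0.96) and Lrrc26 (0.95), and Hpgd was most like Rspo2 (0.99), Emx2 (0.99) and Wisp1 (0.99). For Ptges2 and Ptges3 the highest coefficients were 0.95 (Urgcp) and 0.90 (Fpgs).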

How the data were processed

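Smart-Seq2 libraries of single stria vascularis cells were analysed. Per the labels, the authors used kallisto with GRCm38 (mm10); its version is not given in the sources used here. The deposited values were estimated counts per gene, in whole numbers, and, per transcript, estimated counts and TPM made by the authors. The table held 17 columns whose names match no sample and were not used, and 1288 of 98492 transcripts had no match in GENCODE M21 and were left out of gene TPM.

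Estimated counts were scaled to CPM by each cell's total. Clusters came from Seurat 5.3.0 (10 components, resolution 0.8) without the genes described here, on R 4.3.3. A cluster was named where 80% of its cells scored highest for 1 marker list. No doublet caller was run, since cells were picked singly by eye. Values are means of CPM over cells. The log2 ratio used a pseudocount of 1 CPM, a gene was counted as different at 2-fold where the mean of both groups was at least 10 CPM, and at least 5 cells a group were required. Shares have exact Clopper-Pearson 95% intervals. No test between genotypes or cell types was run, and Dixon's ratio was used to look for sessions that stand apart. scran 1.30.0 size factors and edgeR 4.0.16 TMM factors served as alternatives, as did leaving out each session. Named were the 9 genes, other listed genes with 10 CPM in a wild-type type (30 at most, by level) and the 3 genes most like each member. The members and lists were chosen with earlier results of these data known. Depth sets what a 0 means: the shallowest cell had 1848 counts, and 20 cells had under 100000.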

Additional observations from a re-analysis of the deposited data

Results flagged for a closer look

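Of 17 groups of 4 to 10 sessions of IMC-like cells, 4 held a session far from the others by Dixon's 95% ratio, and chance flags about 1 in 20 groups. Among 5 Slc26a4+/+ sessions of batch 2, Ptgis was at 557 CPM in 1 session of a single cell, with the next at 132.03 CPM, and Ptges2 was at 511 CPM in that same cell, with the next at 5.56 CPM. Among 8 Slc26a4+/+ sessions of batch 3, Ptges2 was at 315 CPM in 1 session, with the next at 102.8 CPM, and Tbxas1 was at 27.9 CPM, with the next at 10.4 CPM. Why these sessions stand apart was not tested.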

How the results depend on the processing

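Among differences of at least 2-fold the direction turned round in 2 cases: the log2 ratio of Ptges in SC-like Slc26a4-/- cells was 5.22 in batch 2, and that of Ptges2 in RC-like Slc26a4-/- cells was 4.16 in batch 4. The log2 ratio of Ptgis in Slc26a4-/- IMC-like cells was -9.01 with a pseudocount of 0.1 CPM and -2.85 with one of 10 CPM, which follows from its near-0 mean. That of Ptgds was -0.96 with summed counts and TMM factors, which left 1 member lower by 2-fold in place of 2, and -1.12 with summed counts alone, an alternative added after seeing the data. Taking each cell's type from its marker score lowered the log2 ratio of MC-like to IMC-like Ptgds to 0.56. Without cells that held 1000 CPM or more of blood markers, also added after seeing the data, the log2 ratio of Hpgd in RC-like to the next type was 1.22. At 1 count in place of 10, 3 IMC-like cells held Ptgis with a count of Ptgs1, none of it on the protein-coding transcript. Leaving out each session gave log2 ratios of -6.15 to -5.50 for Ptgis and -1.69 to -1.35 for Ptgds in Slc26a4-/- IMC-like cells, and left 2 members lower each time. Against the next cell type they gave 5.29 to 5.93 for Ptgis, 1.33 to 1.65 for Ptgds, 0.26 to 3.99 for Ptges and 1.22 to 3.77 for Hpgd, whose lowest value came without the session of the cell at 157.4 CPM. Smaller ratios in Slc26a4-/- also changed sign: that of Ptges3 in IMC-like cells was -1.20 in batch 4 and -0.11 without 1 session (of 8 such cells), and that of Ptgds in MC-like cells was 0.03 with TMM factors, 0.08 with summed counts alone and 0.63 with types from marker scores. That of Ptgds in Slc26a4+/- IMC-like cells was 0.13 with TMM factors. No paired analysis was possible because replicate numbers name single cells and are not shared between genotypes. Shared collection dates are described beside Ptgis and Ptgds.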

Other observations

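In the 5 Slc26a4-/- cells of the unnamed cluster of 62, all of which scored highest for intermediate markers, Ptgis had 0 counts, while among the 25 wild-type cells of that kind 4 had 10 counts or more. Ptgds in the same cells had a median of 788 CPM in Slc26a4-/- and 4437 CPM in Slc26a4+/+. These cells entered no comparison of named clusters.

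Ptgds counts were split over 5 transcripts, and the retained-intron transcript held 11.9% of them in IMC-like cells and 2.602% in MC-like cells.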
